A study of Mus musculus with 2 samples.

Results

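The genes described here are 10 transcripts that the ERK pathway is known to induce and that are commonly read as its output: Spry1, Spry2, Spry4, Spred1, Spred2, Dusp4, Dusp6, Etv1, Etv4 and Etv5. They were chosen by symbol from the 32285 genes of the count matrices, and all 10 were detected in both cultures and passed the minimum of 50 UMIs (unique molecular identifiers, 1 for each captured transcript molecule) over both libraries. The cells were GL261, an established mouse glioma line of the C57BL/6 strain that the labels call an astrocytoma. No genetic change was made between the groups, and none was measured. The paper raises the possibility that the sphere medium selected subclones. The Adherent group grew attached in DMEM with serum and antibiotics. The Neurosphere group grew as floating spheres for 12 days in the same serum medium with EGF at 20 ng/ml, FGF at 20 ng/ml and B-27 supplement, so that the growth factors, the supplement and the sphere form changed together and cannot be told apart. Each group was 1 single-cell RNA-seq library, and the count of each gene was compared between the libraries without a test of the cultures. Adherent cells were released with trypsin and spheres with trypsin and trituration, and both were frozen before capture.

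EGF and FGF bind receptor tyrosine kinases that switch on Ras, and Ras starts a chain of kinases that ends in MEK and ERK. ERK enters the nucleus and induces, among other genes, its own brakes: Sprouty and Spred proteins act back on Ras and the steps around it, and dual-specificity phosphatases take the phosphate off ERK. Etv1, Etv4 and Etv5 are the PEA3 group of ETS transcription factors, which are induced by FGF signalling in many tissues and bind DNA around a GGAA core. In gliomas the pathway is often held on by altered receptors or by loss of the Ras inhibitor Nf1.

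The bases before the start sites of Spry1, Dusp6 and Spry2 are shown because Spry1 was the most increased of the 10 genes in neurospheres, Dusp6 was level in the reported scaling, and the level of Spry2 had the lowest correlation with that of Spry1 over the neurosphere clusters; for these 3 genes the start in the RefSeq table is also the outer end of the gene in the GENCODE annotation. Each is the 250 bases before the start on the gene's own strand in GRCm38.p6, at chr3:37639697-37639946 on the plus strand for Spry1, chr10:99262981-99263230 on the plus strand for Dusp6 and chr14:105896820-105897069 on the minus strand for Spry2, with matches to the ETS letters CCGGAA or AGGAAG, on either strand, in capitals.
Spry1: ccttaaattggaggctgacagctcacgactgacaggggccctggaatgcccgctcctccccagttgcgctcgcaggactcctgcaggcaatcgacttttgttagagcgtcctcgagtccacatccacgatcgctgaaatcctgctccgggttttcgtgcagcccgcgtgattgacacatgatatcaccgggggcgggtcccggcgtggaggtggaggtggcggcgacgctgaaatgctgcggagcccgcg
Dusp6: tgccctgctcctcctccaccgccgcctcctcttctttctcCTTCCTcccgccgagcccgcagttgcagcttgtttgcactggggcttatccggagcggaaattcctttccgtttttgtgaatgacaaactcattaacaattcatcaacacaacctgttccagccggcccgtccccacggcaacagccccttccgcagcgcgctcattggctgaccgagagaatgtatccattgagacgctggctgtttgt
Spry2: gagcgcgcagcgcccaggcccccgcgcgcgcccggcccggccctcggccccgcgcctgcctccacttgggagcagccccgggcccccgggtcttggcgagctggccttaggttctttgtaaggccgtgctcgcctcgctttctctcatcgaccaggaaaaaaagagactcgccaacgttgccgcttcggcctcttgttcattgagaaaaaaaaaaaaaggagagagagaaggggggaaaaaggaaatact
RefSeq windows of 300 bases, from 250 before to 50 after the start, were found for 7 of the 10 genes, in 9 windows, since Etv1 and Etv5 had 2 starts each, and not for Spry4, Dusp4 and Etv4. At least 1 of the ETS motifs was present in 45.2% of all 32851 windows of that length, CCGGAA in 14.9% and AGGAAG in 35.4%. AGGAAG was found in Dusp6 once, 210 bases before the start, in Spred2 in 2 places, in the first Etv1 window in 2 places that overlap and in the second Etv5 window once, and CCGGAA was found in Spry2 once, 33 bases after the start and so past the bases shown. The windows of Spry1 and Spred1 held neither motif. The cyclic AMP response element TGACGTCA, present in 1.79% of all windows, and the AP-1 site TGANTCA, present in 7.81%, were in none of the 9 windows, and the core TGACG, present in 20.8%, was in that of Spred2. These letters are a description of the windows and were not linked to binding.

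The Adherent library held 5764 called cells and 68531063 UMIs, and the Neurosphere library 4951 cells and 82832873 UMIs. After removal of 13 mitochondrial and 101 ribosomal-symbol genes and of cells with few UMIs or genes, 5051 and 4276 cells were kept, with medians of 8260 and 13198.5 UMIs per cell. The median mitochondrial share was 2.02% in adherent and 3.97% in neurosphere cells, and 12 cell barcodes occurred in both libraries. Of the markers of the labelled type, Sox2 and S100b were within 2-fold between the libraries, Vim was at 5583 and 1763 CPM and Slc1a3 at 370 and 80.5 CPM, and these 2 of 8 measured astrocyte markers were over 2-fold lower in spheres and 0 higher, with a median log2 ratio of 0.18. Nes went the other way within 2-fold, at 104 and 201 CPM. So did S100b at 161 and 255 CPM, Aldoc at 11.3 and 17.1 CPM and Aldh1l1 at 3.63 and 5.39 CPM. The summed level of the 10 markers, to which Vim gave most in both libraries, was 6443 and 2502 CPM. Gfap had 30 and 27 UMIs and Aqp4 none. Of the immune list the defining marker Ptprc had 1 and 0 UMIs, and Cd68 had 485 and 276 and Cx3cr1 103 and 96. Of the endothelial list Cdh5 had none and Pecam1 had 61 and 208, while the summed level of 8 oligodendrocyte lineage genes was 775 CPM (CPM, the UMIs of a gene per 1000000 UMIs kept) in the Adherent library and 2557 CPM in the Neurosphere library, with 5 over 2-fold higher in spheres and 1, Mbp, lower. The summed level of 5 fibroblast genes was 3.24 and 387 CPM, with the 3 that were measured all higher. Among them Dcn had 1 and 3606 UMIs, and Col1a1 gave 329 CPM of the neurosphere sum. Below the minimum, Col1a2 had 1 and 23 UMIs and Pdgfrb, the other way, 32 and 4. The summed level of 5 neuronal genes was 51.5 and 236 CPM, and Map2 gave 25.2 and 186 CPM of it. Tubb3 was at 19.7 and 31.5 CPM and Snap25 at 0 in both. These differences moved with the culture, as depth and the mitochondrial share did, and their part in the values below was not tested.

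Taken as a group, the ERK feedback targets did not move one way between the cultures. Spry1, Etv5, Spry2, Etv1, Spred1 and Spred2 were higher in the Neurosphere library, Dusp4, Etv4 and Spry4 were lower, and Dusp6 was level. Over 2-fold higher were 2 of 10, Spry1 and Etv5, where 21.7% of the 14654 genes with at least 50 UMIs were, and over 2-fold lower were 2 of 10, Dusp4 and Etv4, where 11.7% of all were. Both counts were therefore near the background of all genes. The summed level of the 10 genes was 383.3 CPM in the Adherent library against 528.1 CPM in the Neurosphere library, a log2 ratio of 0.46 (95% interval 0.44 to 0.49). The median log2 ratio of the 10 genes was 0.39, and that of all genes tested 0.32, with quartiles at -0.32 and 0.90. All intervals here cover counting error only, and with 1 library a culture they say nothing of the spread between cultures.

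**Figure D1:**
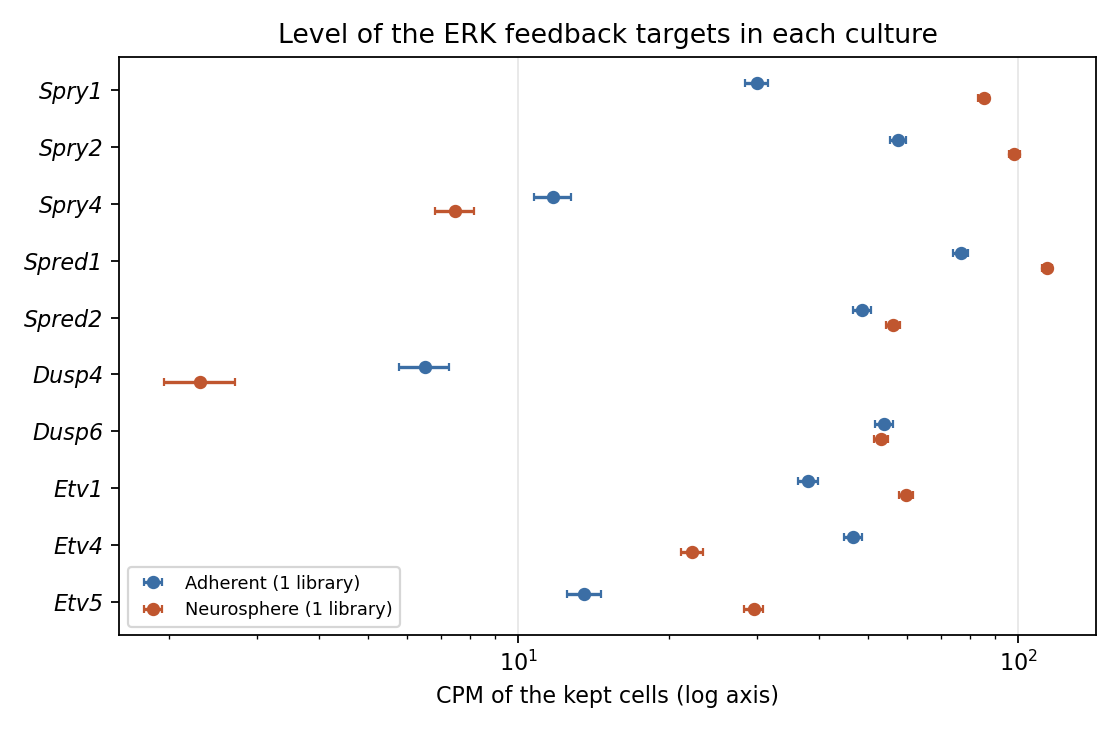
Level of each ERK feedback target in the kept cells of the Adherent and the Neurosphere library, in CPM on a log axis, with exact 95% Poisson intervals as bars. Spry1, Spry2, Spred1, Spred2, Etv1 and Etv5 lie to the right in the Neurosphere library, Spry4, Dusp4 and Etv4 to the left, and the intervals of Dusp6 overlap.

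The Sproutys, membrane-bound inhibitors that act between the receptor and the kinase chain, went in different directions. Spry1 (chromosome 3, 37639947 to 37644598, plus strand, mm10) had 1389 UMIs or 30.0 CPM in adherent cells (95% interval 28.4 to 31.6) and 5537 UMIs or 85.3 CPM in neurosphere cells (83.0 to 87.5), a level 2.84-fold higher and a log2 ratio of 1.51 (1.42 to 1.59). The predicted gene Gm42922 overlaps it on the opposite strand. With every cell thinned to 5000 UMIs, to take out the difference in depth, Spry1 was detected in 13.4% of adherent cells (12.4 to 14.5) and in 34.6% of neurosphere cells (33.2 to 36.1), against 22.0% and 62.7% unthinned. No cell type that should lack these genes was found in these libraries of a cell line, so the share due to free RNA has no measure here.

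Spry2 (chromosome 14, 105891947 to 105896819, minus strand) was at 57.5 CPM when adherent and at 98.2 CPM in spheres, a log2 ratio of 0.77 (0.71 to 0.84), and its share of thinned cells was 21.8% and 30.7% (34.1% and 53.9% unthinned). Spry4 (chromosome 18, 38586247 to 38601415, minus strand), whose locus overlaps Gm27369 and Gm27804 on the other strand, was the Sprouty that was lower in spheres. It had 543 UMIs or 11.7 CPM in adherent cells and 486 UMIs or 7.48 CPM in neurosphere cells, a log2 ratio of -0.65 (-0.83 to -0.47). Its share of thinned cells was 5.78% and 3.46%, while unthinned it was 9.46% and 9.57%, so that the difference was not seen without matching the depth. The change between these paralogs does not depend on the scaling of the libraries: the number of Spry1 UMIs for each Spry4 UMI went from 2.56 in adherent to 11.4 in neurosphere cells, a change of 4.45-fold (3.89 to 5.10).

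The Spreds, relatives of the Sproutys that bring the Ras inhibitor neurofibromin to the membrane, each differed by less than 1.5-fold between cultures. Spred1 (chromosome 2, 117121374 to 117182279, plus strand) was at 76.7 CPM when adherent and at 114.0 CPM in spheres, a log2 ratio of 0.57 (0.51 to 0.63), and was found in 30.5% and 42.4% of thinned cells (45.2% and 71.9% unthinned). Spred2 (chromosome 11, 19924375 to 20024026, plus strand) was at 48.6 and 56.2 CPM, a log2 ratio of 0.21 (0.13 to 0.29) that lies below the median of all genes and turned to -0.0079 under TMM scaling. Its share of thinned cells was 21.1% and 23.8%, and 32.7% and 49.5% unthinned. Spred1 and Spred2 changed little against each other, by 1.29-fold (1.20 to 1.37) in UMIs of Spred1 for each UMI of Spred2.

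The phosphatases did not move together. Dusp6 (chromosome 10, 99263231 to 99267489, plus strand), which acts on ERK in the cytoplasm, had 2496 UMIs or 53.9 CPM in adherent cells (51.8 to 56.1) and 3456 UMIs or 53.2 CPM in neurosphere cells (51.5 to 55.0). Its log2 ratio was -0.02 (-0.09 to 0.06), so counting error alone allowed a change of this size in either direction, and its share of thinned cells was 22.3% and 20.5% (32.7% and 39.5% unthinned). Dusp4 (chromosome 8, 34807297 to 34819894, plus strand), a nuclear phosphatase of ERK and related kinases, was scarce in both libraries. It had 301 UMIs or 6.50 CPM (5.79 to 7.28) in adherent cells and 150 UMIs or 2.31 CPM (1.95 to 2.71) in neurosphere cells, 2.82-fold lower in the spheres, and its share of thinned cells was 2.71% and 1.17% (5.13% and 3.02% unthinned).

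The 3 PEA3 transcription factors split as the Sproutys did. Etv4 (chromosome 11, 101769742 to 101785371, minus strand) had 2165 UMIs or 46.8 CPM in adherent cells (44.8 to 48.8) and 1446 UMIs or 22.3 CPM in neurosphere cells (21.1 to 23.4), a log2 ratio of -1.07 (-1.17 to -0.97). It was detected in 21.5% of thinned adherent cells and in 9.77% of thinned neurosphere cells, and in 33.0% and 24.5% unthinned. Etv5 (chromosome 16, 22381309 to 22439719, minus strand) went from 627 UMIs or 13.5 CPM to 1920 UMIs or 29.6 CPM, 2.18-fold higher with a log2 ratio of 1.13 (1.00 to 1.26), and from 6.23% to 13.5% of thinned cells (11.1% to 31.4% unthinned). The ratio of Etv5 was under 2-fold with TMM scaling, at 0.91 in log2, and that of Etv4 when mitochondrial and ribosomal genes stayed in the total, at -0.85.

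Etv1 (chromosome 12, 38779380 to 38870484, plus strand) was between them, at 37.98 CPM when adherent and at 59.6 CPM in spheres, a log2 ratio of 0.65 (0.57 to 0.73), and at 17.1% and 24.4% of thinned cells (27.4% and 46.9% unthinned). For each Etv4 UMI there were 0.290 Etv5 UMIs when adherent and 1.33 in spheres, a change of 4.58-fold (4.10 to 5.13), and Etv1 changed against Etv4 by 3.30-fold (3.02 to 3.60). Since each gene is captured with its own efficiency at its 3' end, only the change of such a ratio between cultures is read, not the ratio itself.

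**Figure D2:**
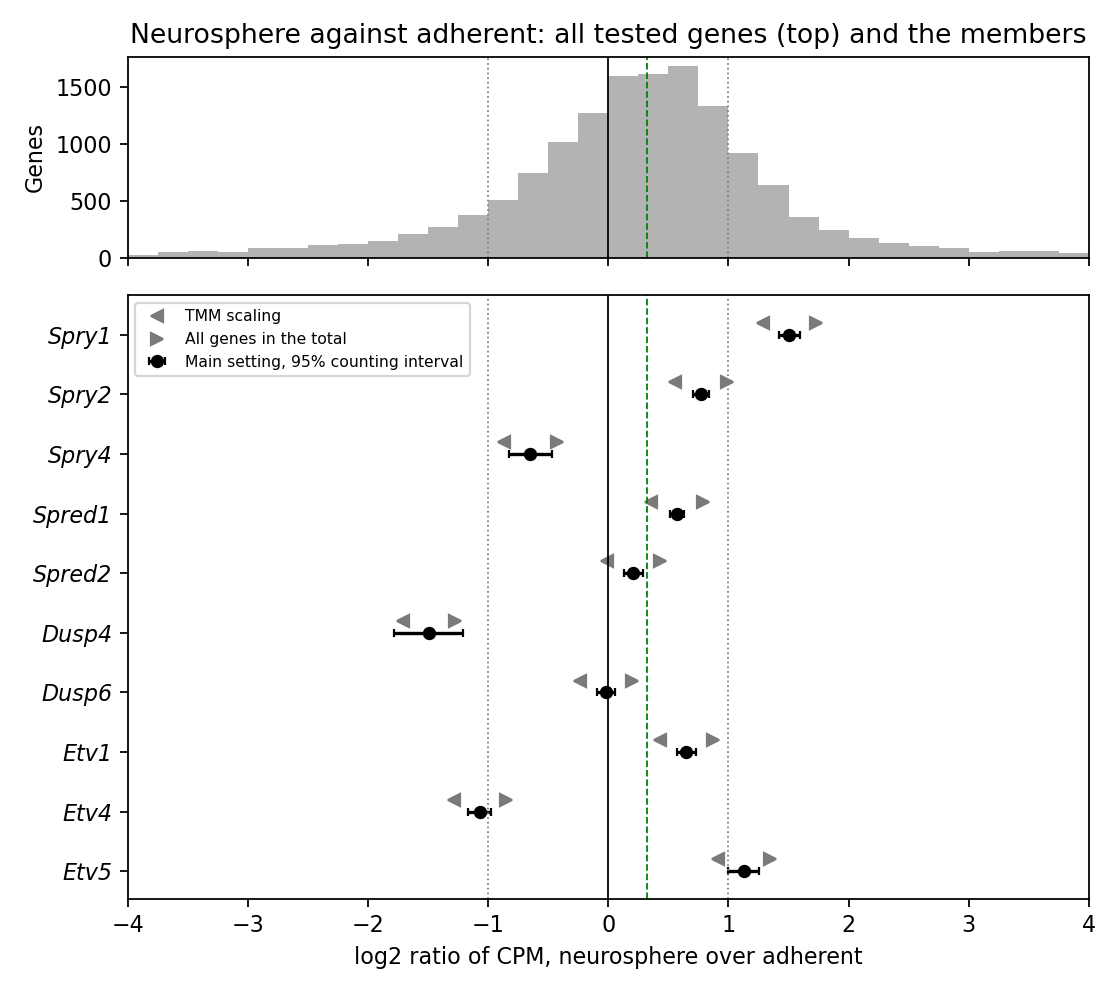
Log2 ratio of CPM, neurosphere over adherent, for all genes with at least 50 UMIs (histogram, number of genes) and for each of the 10 genes (points with exact 95% counting intervals), with triangles for TMM scaling and for a total that keeps mitochondrial and ribosomal genes. Dotted lines mark 2-fold, the dashed line marks the median of all genes at 0.32, and the 10 genes spread from -1.49 for Dusp4 to 1.51 for Spry1.

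Within single cells the 10 genes were sparse, and their counts were weakly correlated. A thinned adherent cell held a UMI of 1.63 of the 10 genes on average and a thinned neurosphere cell of 2.04, and 19.2% of adherent cells (18.03 to 20.4) and 12.4% of neurosphere cells (11.4 to 13.5) held none. Cells with 5 or more of the genes were 1.79% of adherent (1.42 to 2.23) and 4.81% of neurosphere cells (4.19 to 5.51). The median correlation of counts over the 45 pairs of genes was 0.018 across adherent and 0.030 across neurosphere cells, with highest values of 0.116 for Spry2 with Dusp6 in adherent and 0.156 for Spred1 with Etv1 in neurosphere cells. In counts this sparse such values show no common programme, nor do they show that there is none.

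The ratio of variance to mean over cells was highest for Dusp6 and Spry2 in the spheres. A count that falls on all cells of a library alike has a variance equal to its mean, and the variance was 1.88 times the mean for Dusp6, 1.77 for Spry2, 1.54 for Dusp4 and 1.44 for Etv1 in neurosphere cells. In adherent cells it was 1.26 for Dusp6 and 1.34 for Spry2. This ratio also depends on the mean, so it does not rank genes of unlike level. The mean in thinned neurosphere cells was 0.296 UMIs for Dusp6, 0.478 for Spry2 and 0.0129 for Dusp4. In thinned adherent cells it was 0.284 for Dusp6 and 0.281 for Spry2. The tenth of neurosphere cells with the most Dusp6 held 64.6% of its UMIs in these thinned cells, against 56.8% for adherent cells, although the level of Dusp6 in the libraries was the same within counting error.

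**Figure D3:**
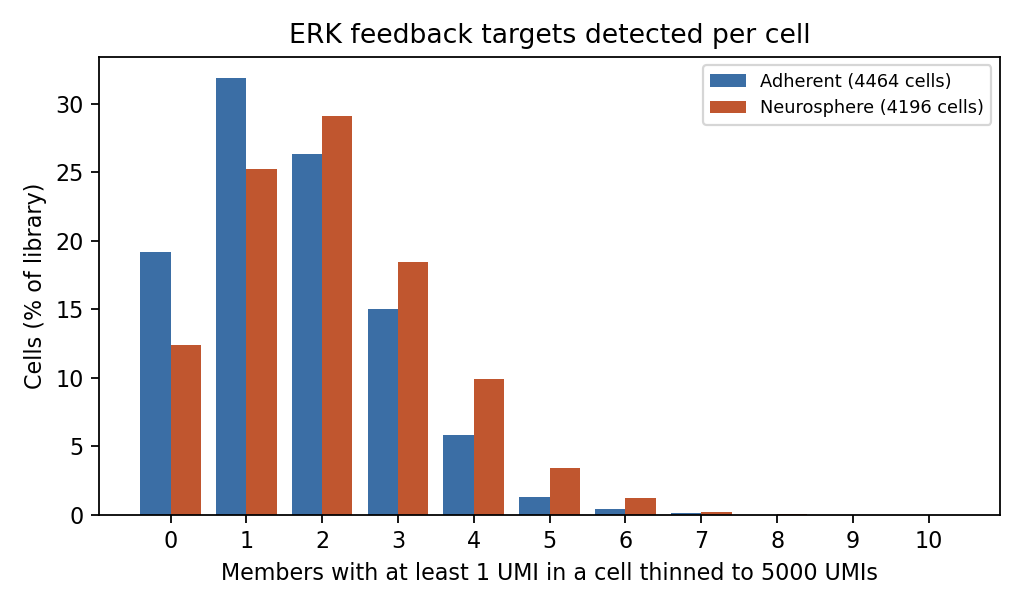
Share of cells (% of the library, each cell thinned to 5000 UMIs) by how many of the 10 ERK feedback targets had at least 1 UMI, for 4464 adherent and 4196 neurosphere cells. The neurosphere bars are higher from 2 genes upwards, and cells with none were 19.2% of adherent and 12.4% of neurosphere cells.

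Cells of each library were grouped into 11 clusters from variable genes that left out the 10 genes and the pathway lists, and the clusters are called by number and leading genes. The ERK feedback targets ranged from Spry1, whose clusters fell apart by culture, to genes whose clusters overlapped. The share of all genes whose clusters separate in this way was not counted, so the separation is not read as particular to these genes. All 11 neurosphere clusters were above every adherent cluster in Spry1, at 49.7 to 127.8 CPM against 19.2 to 40.3 CPM. For Etv4, 10 of 11 neurosphere clusters were below every adherent cluster, at 13.7 to 29.7 CPM against 36.6 to 86.4 CPM, and the exception was cluster 8 at 45.1 CPM. Spry2 was above every adherent cluster in 9 of 11. For Dusp6 the clusters overlapped, at 37.1 to 96.0 CPM in adherent and 32.0 to 207.6 CPM in neurosphere cells, with 2 neurosphere clusters above and 1 below all adherent ones. Clusters of 1 library share their source and are not replicates.

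The same directions were found in cells of like cell cycle genes. Adherent cluster 1 and neurosphere cluster 2 shared the S phase leading genes Hist1h1b and Rrm2, and adherent clusters 5 and 7 shared Nusap1, Cenpf and Top2a, genes of mitosis, with neurosphere cluster 0. This pairing was added after the clusters were seen. Dusp6, level over the libraries, has no direction to compare, and the other 9 genes had the sign they had over the libraries in the S phase pair, with log2 ratios of 1.69 for Spry1 (1.45 to 1.94) and -0.87 for Etv4 (-1.10 to -0.63). In the mitotic pairs they did too, except for Spred2 at -0.33 (-0.52 to -0.14) against adherent cluster 5. Dusp6 was lower in the spheres there, at -0.65 (-0.84 to -0.45), -0.21 (-0.42 to 0.01) and -0.58 (-0.78 to -0.37) in the 3 pairs.

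The level of Dusp6 differed more between these neurosphere clusters than that of any other of the 10 genes except Dusp4. It was highest in cluster 8, followed by cluster 10 at 99.7 CPM and clusters 1 and 7 at 60.8 and 60.6 CPM. That rank was lost at a coarser clustering, of resolution 0.8 in place of 1. There the highest level of Dusp6 was 3.53-fold its lowest, below Dusp4 at 14.7-fold, Etv4 at 4.79-fold and Etv1 at 3.64-fold. Neurosphere cluster 8, led by Cxcl10, Lpcat2, Tnnt3, Tm4sf1 and Lcn2, held 214 cells with a median of 13182.5 UMIs, and 649 of the 3456 Dusp6 UMIs. Its Dusp6 level was 207.6 CPM (192.0 to 224.3) against 45.4 CPM (43.7 to 47.1) in the other 4062 neurosphere cells, 4.57-fold higher, and Dusp6 was detected in 72.0% against 37.8% of these unthinned cells. Spry4 was at 20.8 CPM (16.1 to 26.5) against 6.81 CPM (6.18 to 7.49), Etv4 at 45.1 CPM (37.97 to 53.2) against 21.1 CPM (20.0 to 22.3), and Dusp4, with 17 UMIs, at 5.44 CPM (3.17 to 8.71) against 2.15 CPM (1.80 to 2.55). These are the 3 genes that were lower in the Neurosphere library as a whole, together with Dusp6. Spry1 at 1.10-fold and Etv5 at 1.18-fold, the genes highest in the spheres against adherent cells, were nearly level between cluster 8 and the rest, while Spry2 at 1.66-fold, Etv1 at 1.64-fold and Spred1 at 1.42-fold, also higher in the spheres, were higher in cluster 8 too.

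Over 2-fold higher in cluster 8 were 4 of the 10 genes, where 7.89% of 13459 genes were. The cluster was picked for its Dusp6 level, so this is a description of it and not a test. Of the other feedback regulators 4 of 10 with enough UMIs were over 2-fold higher there, among them Dusp2 at 6.11-fold and the cytokine signalling inhibitor Socs3 at 3.29-fold, and of the other ERK-induced targets 3 of 6, with Ier3 at 198 against 37.9 CPM, Plaur at 2.68-fold and Fosl1 at 2.16-fold. The growth factor Hbegf was at 82.5 against 30.1 CPM. The ligands had 3 of 8 over 2-fold higher, the immediate early genes 3 of 9, the receptors 1 of 6, the kinases 1 of 8 and the adaptors 0 of 16. The named genes of this paragraph were chosen after their values were seen. Without the cells of cluster 8 the log2 ratio of Dusp6 between the libraries was -0.25. At a coarser clustering the cells of cluster 8 fell mainly into 2 clusters, 114 and 89 of them, with Dusp6 at 245.1 and 185.0 CPM, and the highest cluster as a whole was at 112.6 CPM.

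**Figure D4:**
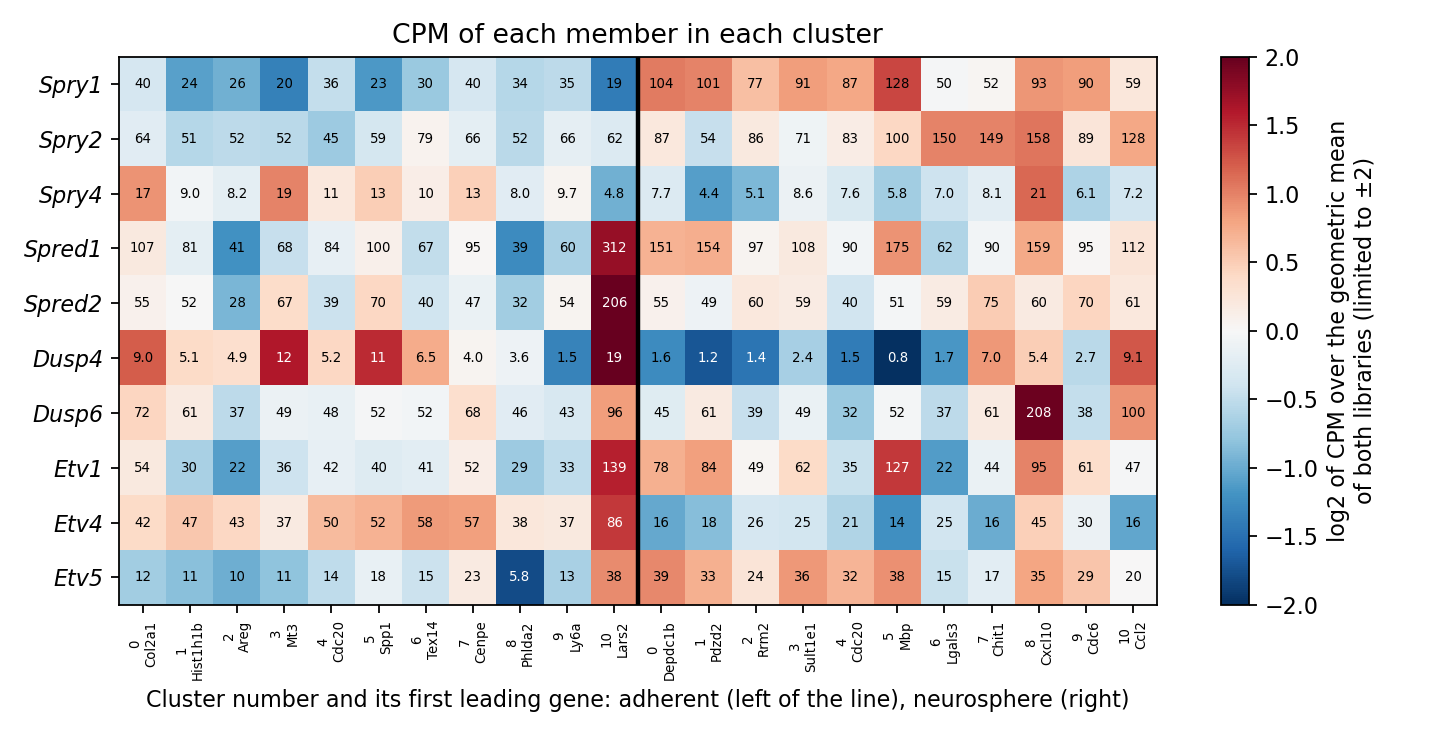
CPM of each ERK feedback target (numbers in the cells) in the 11 adherent clusters, left of the line, and the 11 neurosphere clusters, right of it, with colour for the log2 of that CPM over the geometric mean of both libraries. Spry1 is higher in every neurosphere cluster than in any adherent one, Etv4 is lower in 10 of 11, and Dusp6 stands out at 208 CPM in neurosphere cluster 8.

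Neurosphere clusters 1 and 6 were among those that set Spry1 and Spry2 apart. In cluster 1, led by Pdzd2 and Comp, Spry1 was at 100.7 CPM and Spry2 at 54.5 CPM, its lowest. Cluster 5 was led by the myelin gene Mbp and by Enpp2. Spry1 there was at 127.8 CPM, Spred1 at 174.8 CPM and Etv1 at 127.0 CPM, the highest of all neurosphere clusters. Etv4 at 13.7 CPM and Dusp4 at 0.825 CPM, from 3 UMIs, were the lowest there. Spry2 in cluster 5 was at 99.8 CPM, also above the 88.7 CPM median of the neurosphere clusters. In cluster 6, led by Lgals3, Reln and S100a10, Spry1 at 49.7 CPM, Spred1 at 61.8 CPM, Etv1 at 21.9 CPM and Etv5 at 14.6 CPM were the lowest, and Spry2 at 150.0 CPM was next to the highest. The median depth was 7725 UMIs a cell in cluster 1, 8095.5 in cluster 5 and 23687.5 in cluster 6. Across the 11 neurosphere clusters the levels of Spry1 and Etv5 had a correlation of 0.96, those of Spred1 and Etv1 of 0.95 and those of Spry1 and Spry2 of -0.60, as a description of clusters of 1 library whose depths differ.

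Single genes, 3 of them, were used to split the neurosphere cells in the same way, after the values were seen. The 194 cells with a UMI of Hes5, a Notch target, had Spry1 at 118.9 against 83.6 CPM in the rest, Etv1 at 101.8 against 57.5 CPM and Dusp6 at 84.5 against 51.7 CPM, at median depths of 13520 and 13177.5 UMIs. The 246 cells with a UMI of Fosl1, an AP-1 subunit, had Spry2 at 136.1 against 94.6 CPM and, the other way, Spry1 at 55.9 against 88.0 CPM and Etv1 at 31.7 against 62.2 CPM, at median depths of 21510 and 12801 UMIs. The 146 cells with a UMI of Cxcl10 had Dusp6 at 75.0 against 52.2 CPM and Spry2 at 149.9 against 95.8 CPM and, the other way, Spry1 at 60.7 against 86.4 CPM and Spred1 at 88.9 against 115.2 CPM, at median depths of 16737.5 and 13041.5 UMIs. In adherent cells with and without Cxcl10, Dusp6 was at 52.1 and 55.1 CPM.

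Among adherent clusters, cluster 10 stood apart in its summed level of the 10 genes, 984 CPM against 272 to 474 CPM in the others. It held 65 cells with a median of 2850 UMIs and 9.31% mitochondrial UMIs and was led by Lars2, Pcdh9, Adgrb3 and Neat1. Spred1 at 312.1 CPM, Spred2 at 206.4 CPM and Etv1 at 139.2 CPM, long genes of 60.9, 99.7 and 91.1 kb, were among the 7 of 10 genes at their highest adherent level there, and so was Dusp6, of 4.26 kb, at 96.0 CPM. Spry1, of 4.65 kb, was at its lowest with 4 UMIs. The part of depth and mitochondrial share in this was not tested. In the other 10 adherent clusters the range was narrower than over the neurosphere clusters for 8 of 10 genes, Spred2 and Etv5 being the exceptions, and with cluster 10 it was narrower for 5 of 10. Without it Dusp6 varied by 1.94-fold between the highest and lowest cluster, Etv1 by 2.46-fold and Etv4 by 1.59-fold, where in neurosphere clusters the values were 6.49, 5.79 and 3.28.

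The genes whose cluster levels were most like the summed level of the 10 genes were ranked by the correlation over 11 clusters. In neurosphere cells they were Cemip2 and Sat1, each at 0.97, then Ugp2, Itgav and 4931406C07Rik, of 9431 genes ranked. In adherent cells they were Fryl, Zswim6, Mettl15, Garnl3 and Rnf217, from 0.99 to 0.98 of 7845 genes, over clusters that include cluster 10. The order depends on the resolution: at 0.8, Cemip2 alone of the neurosphere genes and Fryl alone of the adherent genes were again among the first 5.

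The rest of the pathway was read from lists of 90 genes, of which 72 had enough UMIs, 12 were over 2-fold higher and 14 over 2-fold lower in the spheres, with a median log2 ratio of 0.11. These are 16.7% and 19.4%, beside 21.7% and 11.7% of all genes, whose median was 0.32. Of 6 receptors, 1 was higher and 1 lower. Erbb4, a neuregulin receptor, had 5 adherent UMIs against 233 neurosphere UMIs, or 3.59 CPM, and Fgfr3 was at 10.3 and 1.22 CPM. The other receptors lay within 2-fold, among them Fgfr2 at 39.2 and 36.2 CPM and Erbb3 at 51.8 and 36.6 CPM. Egfr, the receptor of the EGF that was added, had 24 adherent UMIs and 1 neurosphere UMI, below the minimum, and is named here after its values were seen.

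The cells' own transcripts for ligands summed to less in the spheres, mostly through Hbegf. Their summed level was 402 CPM in the Adherent library against 105 CPM in the Neurosphere library. Of 11 measured, 3 were over 2-fold lower and 2 higher, beside 11.7% and 21.7% of all genes, with a median log2 ratio of -0.59. Hbegf, a ligand of the EGF receptor, was at 324.8 CPM when adherent and at 32.7 CPM in spheres, a log2 ratio of -3.31 (-3.38 to -3.25), Areg was at 22.4 and 2.56 CPM and Fgf2 at 2.68 and 0.169 CPM. Egf was at 1.71 and 4.17 CPM and Nrg2 at 2.55 and 5.84 CPM.

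The adaptors, Ras cycle genes and kinases, among them the Ras inhibitors Nf1, Rasa1, Rasa2 and Rasa3, had 0 over 2-fold lower, where 11.7% of all genes were, and their counts over 2-fold higher were near the 21.7% of all genes. Of 16 adaptors and Ras cycle genes 2 were higher, the docking proteins Gab1, with a log2 ratio of 1.78, and Frs3, with 1.55, and 0 were lower, while Hras was at -0.70. Of 9 kinase genes measured 2 were over 2-fold higher, with a median log2 ratio of 0.70. Map2k1, which encodes MEK1, was at 1.04, and Mapk3, which encodes ERK1, was at -0.89. Rps6ka1, Rps6ka2 and Rps6ka3 were not measured, because their symbols begin like those of ribosomal protein genes.

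The shares of all genes, 21.7% over 2-fold higher and 11.7% lower, stand beside the counts of the other ERK-induced genes. Of 11 other feedback regulators 5 were over 2-fold lower and 2 higher, with a median log2 ratio of -0.86: the phosphatase genes Dusp2 at -4.49 (30.7 and 1.37 CPM), Dusp9 at -1.83, Dusp5 at -1.70 and Dusp1 at -1.09, and Errfi1, a direct inhibitor of the EGF receptor, at -1.25 were lower, and Spry3 and Lrig1 were at 1.33 each. Of 7 other ERK-induced targets 4 were over 2-fold lower and 0 higher: Epha2 at -4.00, Ier3 at -2.51 (260 and 45.6 CPM), Plaur at -2.48 and Fosl1 at -1.87, beside Myc at 0.75 and Ccnd1 at 0.66. Dusp1, Errfi1 and Fosl1 are named here after their values were seen. The list of phosphatases that act mainly on JNK and p38 had 0 of 3 past 2-fold, with Dusp16 at 0.83 and Dusp10 at -0.37.

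The immediate early genes, which ERK and cell handling both induce quickly, had 3 of 9 measured over 2-fold higher and 1 lower, beside 21.7% and 11.7% of all genes, with a median log2 ratio of 0.72 against 0.32 for all genes. In a list this short these counts are near the background. Egr1 was at 36.8 CPM when adherent and at 136.9 CPM in spheres, a log2 ratio of 1.89 (1.82 to 1.97), Egr2 at 1.28 and Fosb at 1.06, while Atf3 was at -1.16. Since the spheres were also triturated, the part of dissociation in these values cannot be told apart from that of the culture. In cluster 8, where Dusp6 was 4.57-fold higher, Egr1 was at 110.4 against 138.2 CPM in the other neurosphere cells and Egr2 at 10.6 against 1.34 CPM.

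**Figure D5:**
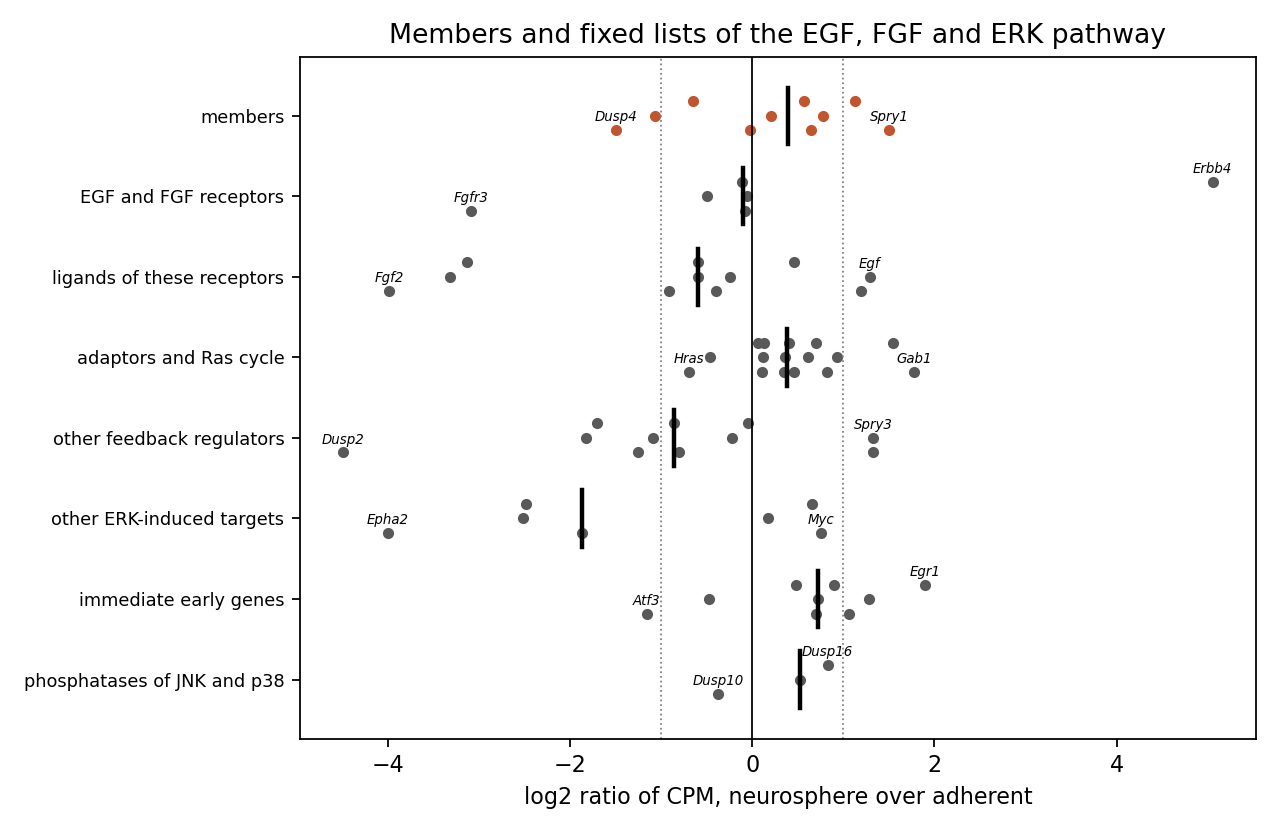
Log2 ratio of CPM, neurosphere over adherent, for each of the 10 members and for each gene of 7 pathway lists, without the kinase list, with at least 50 UMIs, 1 point a gene, with the median of each list as a vertical bar and 2-fold as dotted lines. The medians lie at 0.39 for the 10 members, -0.59 for the ligands, -0.86 for other feedback regulators, -1.87 for other ERK-induced targets and 0.72 for immediate early genes.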

How the data were processed

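GL261 cells from 1 adherent and 1 neurosphere culture were profiled by droplet 3' single-cell RNA-seq. The authors made the deposited files with Cell Ranger 7.0.1 on mm10, and the deposited values are raw UMI counts per gene and called cell; the annotation release and the setting for intronic reads are not given in the sources used here. Groups were taken from the treatment labels.

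From these counts, genes with mitochondrial (13) or Rps or Rpl (101) symbols were removed, then cells under 1000 UMIs or under 1250 (adherent) or 2250 (neurosphere) genes, with thresholds and order as the study's methods list them. Filtering cells before removing genes kept 5073 and 4300 cells, the cell numbers the study states, in place of 5051 and 4276, and left each member's log2 ratio the same within counting error. CPM were computed on the genes left, and log2 ratios carry exact conditional 95% intervals, CPM exact Poisson and shares exact binomial (Clopper-Pearson) intervals, all of counting error only. With 1 library per culture no p-value was computed, and a gene was called by a fold of 2. The scripts were tested on simulated data. For shares, cells were thinned to 5000 UMIs, which left out 587 adherent and 80 neurosphere cells. No doublet caller was run. Clusters came from Seurat 5.3.0 in R 4.3.3 (2000 variable genes without the members and pathway lists, resolution 1). Scaling alternatives used edgeR 4.0.16 for TMM factors; other steps ran in Python 3.11.15. Positions are from GENCODE vM21 (GRCm38, the same build as mm10) and promoters from RefSeq on GRCm38.p6.

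All 10 members are named, and from each pathway list the genes with the largest and smallest log2 ratio, up to 3 each way, among those with at least 50 UMIs over both libraries, except that 1 gene of the kinase list is not reported here; others named outside this rule are said to be so. Genes most like the summed level, 5 a library, were ranked among those with at least 500 UMIs. The members and lists were chosen with earlier results of these data known, the alternatives for cells of single clusters, the pairing of clusters and the splits by single genes after these values were seen. The alternatives changed the scaling, the cell filters, the thinning, the fold, the UMI minimum, the resolution and the gene length trend.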

Additional observations from a re-analysis of the deposited data

How the results depend on the processing

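Over 14 settings of scaling and of cells, Spry1, Spry2, Spred1, Etv1 and Etv5 stayed higher and Spry4, Dusp4 and Etv4 lower in the Neurosphere library; Spred2 kept its sign in 13, turning to -0.0079 under TMM scaling, and Dusp6 in 9, ranging from -0.25 to 0.20 in log2. The summed log2 ratio of the 10 genes, 0.46, was 0.25 under TMM scaling, 0.68 when the total also counted mitochondrial and ribosomal genes, 0.52 in thinned cells and 0.41 without the cells of neurosphere cluster 8, which was tried after seeing the data. These scalings move all genes: the median log2 ratio of all genes was 0.32 in the reported values, 0.11 under TMM scaling and 0.54 with all genes in the total, where 29.5% of all genes were over 2-fold higher and 9.38% lower in place of 21.7% and 11.7% (16.1% and 14.5% under TMM scaling). Of the 10 genes 1, Spry1, was over 2-fold higher under TMM scaling and 4 were higher and 3 lower at a threshold of 1.5-fold, which 38.2% and 18.3% of all genes passed, and 1, Dusp4, was over 2-fold lower with all genes in the total. The highest neurosphere cluster in Dusp6 was at 112.6 CPM at a resolution of 0.8 in place of 207.6 CPM. With cells thinned to 3000 UMIs a cell held 1.06 of the genes in the Adherent and 1.37 in the Neurosphere library. With a minimum of 10 UMIs, 2 receptors and 2 immediate early genes were over 2-fold lower in place of 1 each and 4 ligands in place of 3, where 14.7% of all 18062 genes were. No paired analysis was possible because each culture had 1 library, and for the same reason no library could be left out. The depth limits Dusp4 and Spry4, whose 150 and 486 neurosphere UMIs gave the widest intervals.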
